A study of Mus musculus with 8 samples.

Results

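The inflammasome and the processing of interleukin 1 (IL-1) family cytokines were examined through 10 genes chosen by name, Nlrp3, Nlrc4, Pycard, Casp1, Casp4, Gsdmd, Il1b, Il18, Il1rn and Il18bp, out of 31406 genes in the table. The study asked how mouse striatal microglia activated with lipopolysaccharide (LPS) and interferon-γ (IFN-γ) respond when the A2A adenosine receptor is blocked, and whether stimulation of the A3 receptor adds to it. Primary cultures were prepared from the brains of newborn wild-type C57/BL6 pups, kept for 15 days, and activated with LPS at 0.01% (v/v) and IFN-γ at 0.002% (v/v). Both groups used here carried this activation, and both received SCH 58261, an antagonist of the A2A receptor, in 3 additions (24, 32 and 40 h into the activation) before RNA was taken at 48 h. The antagonist group (n = 4) received SCH 58261 alone, and the dual group (n = 4) received it together with the A3 receptor agonist 2-Cl-IB-MECA at 200 nM. The methods state fewer samples of ligand-treated cells than the 4 libraries a group used here, whereas a figure caption of the paper gives 4. Groups follow the sample titles. The labels' treatment field contradicts them, placing 2-Cl-IB-MECA in the libraries with antagonist titles and not in those with dual titles, so every direction given here rests on the titles. Activated cells without ligands were not analysed here. The methods list human IFN-γ as the reagent.

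Inflammasomes are cytosolic complexes that switch on inflammatory caspases. A sensor such as NLRP3 or NLRC4 recruits the adaptor ASC, encoded by Pycard, which gathers procaspase-1. Caspase-1 then cleaves the precursors of IL-1β and IL-18 and the pore-forming protein gasdermin D, while caspase-4 of the mouse (often called caspase-11) senses cytosolic LPS directly and also cleaves gasdermin D. In microglia and macrophages, LPS acts as a priming signal that raises transcription of several of these genes. The IL-1 receptor antagonist (Il1rn) and the IL-18 binding protein (Il18bp) are secreted inhibitors of the 2 cytokines. Assembly, cleavage and secretion leave no direct trace in RNA, and the values below are transcript levels.

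The 8 libraries held between 32630602 and 45878639 counts assigned to genes, and all 10 genes passed the filter on low counts. Mitochondrially encoded genes took 1.66% ± 0.0723 of the counts in the antagonist group and 1.71% ± 0.0672 in the dual group (SD, n = 4 each). The cultures are labelled as microglia. Of 10 microglial markers, C1qa, Csf1r, Itgam and Cx3cr1 were the most abundant. Tmem119 lay at only 6.41 to 8.26 CPM (counts scaled to library size) and P2ry12 at 1.47 to 2.50 CPM. The 10 microglial markers summed to 1054 to 1180 CPM in every library. The summed level of 7 astrocyte markers, led by Slc1a3, Gfap and Aqp4, lay between 5777 and 6282 CPM. Fibroblast markers, collagens among them, summed to 2183 to 2791 CPM. The methods describe the cultures as almost pure microglia by CD11b labelling. The RNA nevertheless held transcripts of several cell types, and in such bulk samples fewer cells of a type and less RNA per cell cannot be told apart.

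The members sit in a few known gene neighbourhoods of the GRCm38 (mm10) genome. Casp1 (chromosome 9, 5298517 to 5307265, plus strand) ends 1562 bases before Casp4 begins (chromosome 9, 5308828 to 5336783, plus strand), and Casp12 follows on the same strand. Il1b (chromosome 2, 129364570 to 129371139, minus strand) and Il1rn (chromosome 2, 24336853 to 24351494, plus strand) share a chromosome but not a cluster, whereas Il1a lies 54597 bases from Il1b. Il18bp occupies chromosome 7 from 102014885 to 102018690 on the minus strand, Pycard chromosome 7 from 127989708 to 127993867 on the minus strand, and Il18 chromosome 9 from 50554827 to 50581840 on the plus strand. Nlrp3 (chromosome 11, 59541568 to 59566956, plus strand), Nlrc4 (chromosome 17, 74425438 to 74459142, minus strand) and Gsdmd (chromosome 15, 75862327 to 75867408, plus strand) each lie on a chromosome with no other member.

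Priming by LPS is known to run through NF-kappaB, so the RefSeq promoter windows (GRCm38.p6, 250 bases upstream of each start) were searched for its motif, written as GGG, any 5 bases and CC, on both strands. Of the 10 genes, 9 had a window. Il1b is shown because its transcript is by far the most abundant of the set, and Casp4 because it carries the most matches. Both run 5′ to 3′ on the gene's own strand, without bases inside the gene. Capitals mark merged matches, which overlap because the same site is matched in shifted frames and on both strands.
Il1b, chr2:129371140-129371389, minus strand: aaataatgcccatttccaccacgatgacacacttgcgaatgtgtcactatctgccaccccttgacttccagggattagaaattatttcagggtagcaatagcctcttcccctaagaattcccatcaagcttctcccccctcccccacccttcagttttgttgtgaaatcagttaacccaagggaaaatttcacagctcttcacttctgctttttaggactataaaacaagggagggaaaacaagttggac
Casp4, chr9:5308599-5308827, plus strand: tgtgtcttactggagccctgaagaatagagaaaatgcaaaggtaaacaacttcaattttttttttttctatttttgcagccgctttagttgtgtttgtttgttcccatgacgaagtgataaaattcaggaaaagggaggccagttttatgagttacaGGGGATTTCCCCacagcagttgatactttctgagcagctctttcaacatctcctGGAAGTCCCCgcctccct
The printed Casp4 stretch holds GGGGATTTCC and, nearer the start, GGAAGTCCCC. The Il1b window has no match, and windows of Casp1, Il1rn and Nlrp3 have at least 1 each. Such matches are common, since 45.8% of 32851 promoter windows of this length hold one. The interferon response core of GAAA, any 2 bases and GAAA (2.98% of windows) and the full cyclic AMP element TGACGTCA (1.55%) were found in no window of the 9 genes.

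Transcript levels differed far more between the genes than between the groups. Il1b stood far above the rest, whereas the adaptor and Nlrc4 were scarce. Per length of the gene, in the deposited FPKM values (fragments per kilobase of gene, scaled to library size), Il1b averaged 375 ± 14.0 FPKM in the antagonist group (SD, n = 4) and ranked 65 of 18756 tested genes over all 8 libraries. Its mean over the 8 libraries was 13.4-fold that of Casp1, the next member.

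The FPKM order over the 8 libraries was Il1b, Casp1, Casp4, Gsdmd, Il1rn, Nlrp3, Il18, Il18bp, Pycard and Nlrc4. The 2 caspases averaged 27.6 FPKM (Casp1) and 18.9 FPKM (Casp4), and the next 5 genes spanned 11.7 to 14.6 FPKM. Neighbours whose libraries overlapped were Gsdmd with Il1rn, Nlrp3 with Il18, and Il18 with Il18bp, so their order is not resolved. Pycard averaged 2.10 FPKM and Nlrc4 1.09 FPKM, below the others in every library.

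**Figure D1:**
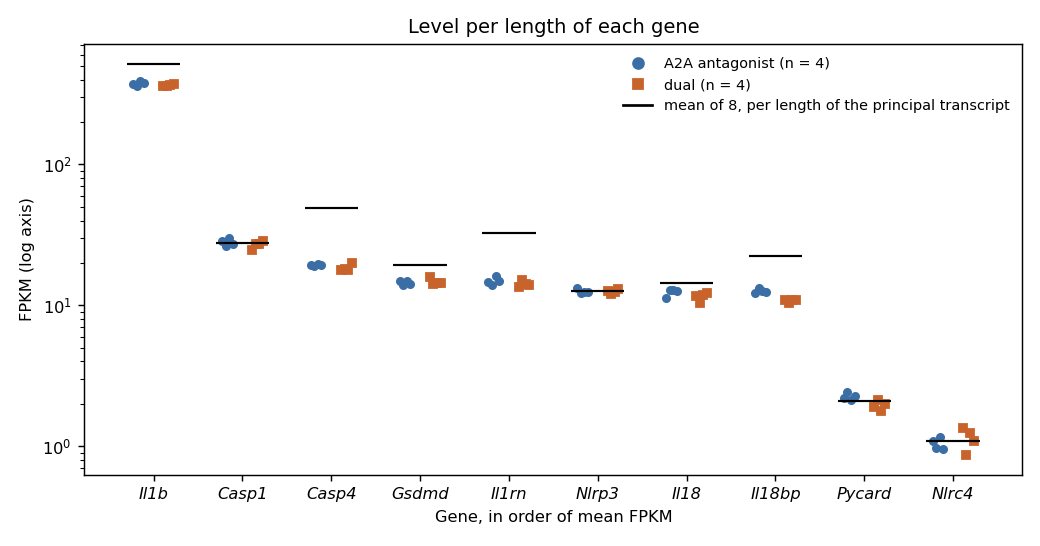
Level of each gene in FPKM (log axis) in the 4 antagonist (circles) and 4 dual (squares) libraries, in order of the mean, with a black line for the mean of all 8 recomputed per length of the annotated principal transcript. Il1b lies above every other gene in each library, Pycard and Nlrc4 lie lowest, and the black lines of Casp4, Il1rn and Il18bp lie well above their points.

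The deposited lengths count all exons of a gene. Taking instead the length of the annotated principal transcript moved Casp4 from 19.3 to 49.96 FPKM, Il1rn from 15.0 to 33.5 and Il18bp from 12.7 to 24.0 (antagonist means). Il1b moved from 375 to 527 FPKM, Gsdmd from 14.6 to 19.3 and Il18 from 12.4 to 14.9. Casp1, Nlrp3, Pycard and Nlrc4 stayed within 1 SD of their values. The Casp1 over Casp4 order was thereby turned around, and Il1rn moved above Casp1. Il1b stayed first, and Pycard and Nlrc4 stayed last.

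Between the groups, Il18bp was the 1 gene of the 10 that passed the test, being lower in the dual group. Across all 18756 genes, edgeR's quasi-likelihood test with Benjamini-Hochberg adjustment called 0.208% at an adjusted p under 0.05, 0.16% as lower and 0.048% as higher. Without adjustment, 12.8% had a p under 0.05 by that test, and DESeq2's Wald test called 1.99% after adjustment. The number called varied with the processing and with single libraries left out. The other 9 of the 10 genes did not pass edgeR's test, with log2 fold changes from -0.20 (Pycard) to 0.12 (Nlrc4). Fold changes were below 0 for 8 of the 10 genes, with a median of -0.06, against 48.5% of all genes and a median of 0.0038. The 10 genes share libraries and, in part, cell types, and their signs are not independent.

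**Figure D2:**
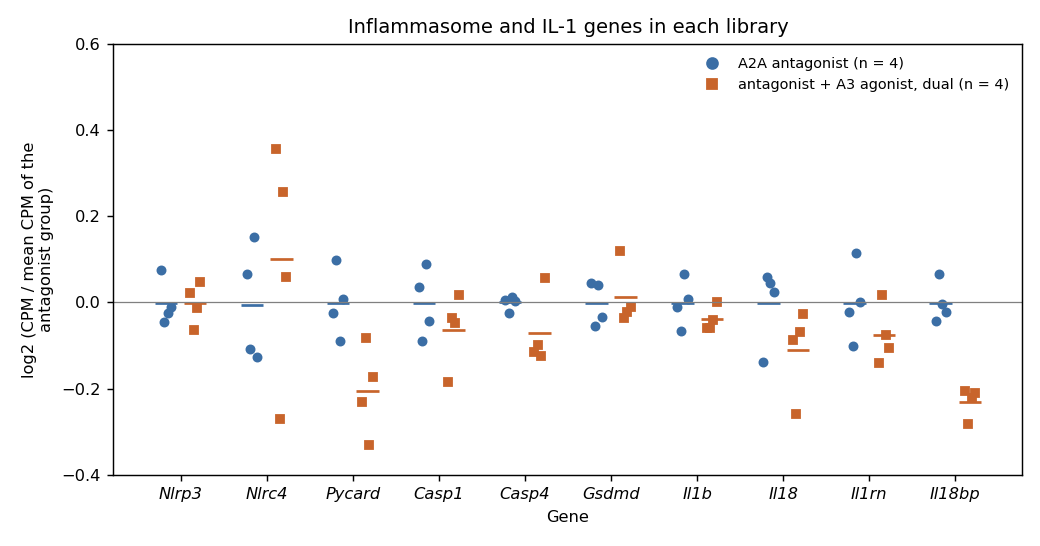
CPM of each gene in each library, as the log2 ratio to the mean of the antagonist group, with a horizontal line for each group's mean log2 ratio. The 4 dual libraries of Il18bp lie below all 4 antagonist libraries, while the groups of the other 9 genes overlap, by a single library in Pycard, Il18 and Casp4.

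Among the sensors, NLRP3 responds to ion fluxes and membrane damage. Nlrp3 was at 54.1, 49.8, 50.4 and 51.0 CPM in antagonist replicates 1 to 4 and at 52.1, 49.1, 50.9 and 53.1 CPM in the dual replicates. The ranges lay over each other, and the group means, 51.3 ± 1.91 and 51.3 ± 1.71 CPM (SD, n = 4 each), gave an edgeR log2 fold change of -0.00034 ± 0.04 (SE; adjusted p = 0.999). Its 95% confidence interval, -0.09 to 0.09, corresponds to a change between -5.91% and 6.23%.

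NLRC4 responds to bacterial flagellin and secretion systems through NAIP proteins. Nlrc4 rested on 157 to 273 counts a library, the fewest of the set. It measured 5.21, 4.62, 5.53 and 4.56 CPM in the antagonist group and 6.38, 4.13, 5.95 and 5.19 CPM in the dual group. The dual group held both the highest and the lowest library. The edgeR log2 fold change was 0.12 ± 0.12 (adjusted p = 0.739), and its interval of -0.14 to 0.38 leaves room for changes in either direction at this depth.

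The adaptor ASC links sensors to caspase-1. Pycard was at 8.45, 9.21, 8.09 and 8.65 CPM in the antagonist group and at 7.33, 8.12, 6.84 and 7.62 CPM in the dual group. Only dual replicate 2 reached into the antagonist range, just above antagonist replicate 3. The means were 8.60 ± 0.470 and 7.48 ± 0.537 CPM, a log2 fold change of -0.20 ± 0.08 with an interval of -0.37 to -0.03. The unadjusted p of 0.0213 did not survive adjustment (edgeR adjusted p = 0.288), and 6.81% of all genes reach an unadjusted p under 0.05 as lower. Pycard shares 485 exon bases with Gm45205 on the opposite strand, and since the strand setting of the counting was not given in the sources used here, reads of the pair cannot be told apart.

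The inflammatory caspases were both well expressed and near each other in fold change. Casp1, the protease that matures IL-1β and IL-18, averaged 42.5 ± 2.36 CPM in the antagonist group and 40.8 ± 2.40 CPM in the dual group. Its dual libraries ran from 37.4 to 43.1 CPM and its antagonist libraries from 40.0 to 45.3 CPM, with a log2 fold change of -0.06 ± 0.05 (edgeR adjusted p = 0.683). Casp1 shares no 31-base stretch with any other annotated gene.

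Casp4, the LPS sensor whose promoter is printed above, was at 72.5, 71.0, 72.9 and 72.4 CPM in the antagonist libraries and at 66.7, 67.4, 66.3 and 75.1 CPM in the dual libraries. Dual replicates 1 to 3 lay below every antagonist library and dual replicate 4 above every one. The log2 fold change was -0.07 ± 0.04 (edgeR adjusted p = 0.540), and -0.11 without dual replicate 4 (adjusted p = 0.188), so neither value passed.

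Gasdermin D forms the membrane pore through which IL-1β leaves and pyroptotic cells lyse. Gsdmd measured 36.0, 33.6, 35.9 and 34.1 CPM in the antagonist group and 37.9, 34.0, 34.3 and 34.6 CPM in the dual group. Dual replicate 1 was the highest of the 8, and the remaining dual libraries lay within the antagonist range. The log2 fold change of 0.01 ± 0.05 had an interval of -0.09 to 0.11 (edgeR adjusted p = 0.944).

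Of the cytokines, Il1b encodes the precursor of IL-1β, a central pyrogen and a classical product of LPS-primed microglia. It was counted 22528 to 32873 times a library. Il1b stood at 715, 688, 753 and 724 CPM in the antagonist group and at 691, 691, 699.8 and 721 CPM in the dual group. All 4 dual libraries fell inside the antagonist range. The log2 fold change was -0.04 ± 0.03 (edgeR adjusted p = 0.671), and the interval of -0.11 to 0.03 corresponds to a change between -7.20% and 2.10%. An antisense gene, Il1bos, covers 25 exon bases of Il1b.

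Il18 encodes a precursor that, unlike that of IL-1β, many cells make without stimulation. It was at 11.7, 13.4, 13.3 and 13.1 CPM in the antagonist group and at 12.1, 10.7, 12.3 and 12.6 CPM in the dual group. Antagonist replicate 1 lay among the dual libraries, and the other antagonist libraries lay above all of them. The log2 fold change was -0.11 ± 0.07 (edgeR adjusted p = 0.559).

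The 2 secreted inhibitors follow, the first not called and the second called, a difference between them that was not tested. Il1rn, whose product occupies the IL-1 receptor without signalling, was at 82.0, 77.6, 90.2 and 83.4 CPM in the antagonist group and at 75.6, 84.3, 79.0 and 77.5 CPM in the dual group. The groups overlapped over most of their range. The log2 fold change was -0.07 ± 0.05 (edgeR adjusted p = 0.529).

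Il18bp, whose product binds and neutralises IL-18 and which is a known IFN-γ target, fell. Its raw counts were 1446, 1837, 1608 and 1728 in the antagonist group and 1092, 1207, 1519 and 1480 in the dual group. Scaled to library size these were 37.5, 40.4, 38.5 and 38.0 CPM against 33.5, 31.7, 33.1 and 33.4 CPM. The groups did not overlap, as was the case for 4.06% of all genes in the lower direction and 3.36% in the higher one, and the gap between the lowest antagonist and the highest dual library was wider than the range of the dual group. The means were 38.6 ± 1.26 and 32.9 ± 0.814 CPM. The log2 fold change was -0.23 ± 0.04 with an interval of -0.32 to -0.14, a change of -14.7% (-19.9% to -9.29%), and the edgeR adjusted p was 0.0309. DESeq2's Wald test, which called 1.99% of genes, and 3.87% of the 9665 to which it gave an adjusted p, also called it (adjusted p = 0.000648).

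The size of the Il18bp difference was stable, while its call was not. Leaving out single libraries kept the log2 fold change between -0.24 and -0.21, but the edgeR adjusted p rose to 0.142, 0.0811 and 0.0932 without antagonist replicates 2, 3 and 4, and to 0.0716 and 0.0859 without dual replicates 2 and 3. Without antagonist replicate 1 it was 0.0197, and without dual replicates 1 and 4 it was 0.0495 and 0.0429. Numa1, which runs on the other strand, covers 80 exon bases of Il18bp, and 1.60% of the 31-base stretches of Il18bp occur in another gene.

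**Figure D3:**
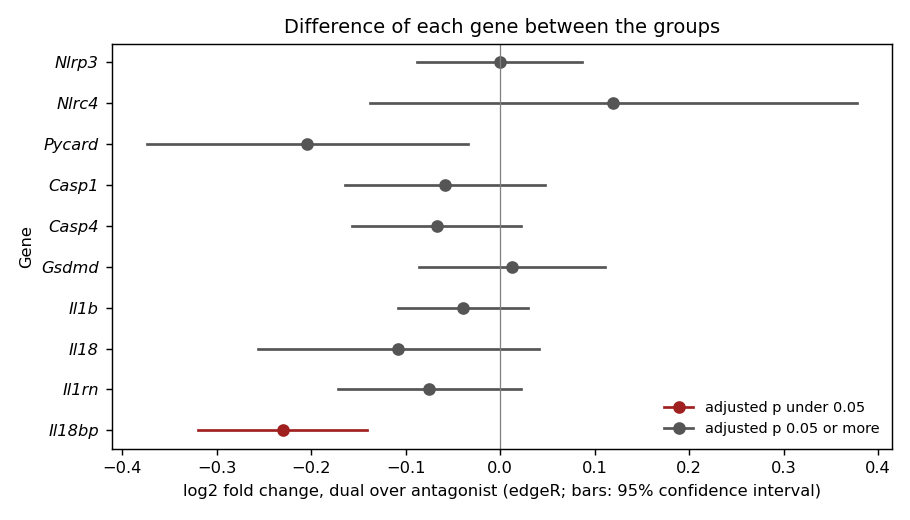
log2 fold change of each gene, dual over antagonist, from edgeR (points) with its 95% confidence interval (bars), for n = 4 libraries a group. The interval of Il18bp (-0.32 to -0.14) lies wholly below 0 and is the only red one, that of Pycard ends just below 0 without passing adjustment, and Nlrc4 has the widest interval.

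Levels of cell type markers are given beside this difference. The summed microglial markers were 1092 to 1180 CPM in the antagonist group and 1054 to 1108 CPM in the dual group. The mean difference was -5.72%, with overlapping ranges. Of the 10 markers C1qa alone was called (log2 fold change -0.24, edgeR adjusted p = 0.0240). C1qa averaged 476 CPM in the antagonist group and 403 CPM in the dual group. The sum, in which abundant genes weigh most, went from a mean of 1147 to 1082 CPM. At an unadjusted p under 0.05, Aif1 was also lower and Csf1r was higher. Aif1 had a log2 fold change of -0.21 (edgeR unadjusted p = 0.00144, adjusted p = 0.110). That of Csf1r was 0.11 (edgeR unadjusted p = 0.00522, adjusted p = 0.171). The fold changes of 6 of the 10 microglial markers were below 0 and those of 4 above. Fibroblast markers summed to 2183 to 2458 and 2185 to 2791 CPM (7.66% higher on average), and astrocyte markers to 5777 to 6044 and 5830 to 6282 CPM. The part of cell composition in the Il18bp difference was not tested. Of the neutrophil markers only S100a8 was measured, at 2.00 to 3.61 CPM over the 8 libraries, and the T cell markers Cd3e and Cd3d summed to 0.104 CPM or less in each library.

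The balance of each cytokine with its inhibitor was computed within a library from reads per kilobase. Il1b exceeded Il1rn by 25.3, 25.7, 24.2 and 25.2 times in the antagonist libraries and by 26.5, 23.8, 25.7 and 27.0 times in the dual libraries. The groups overlapped, with a log2 difference of 0.04 (exact two-sided permutation test, p = 0.486, adjusted over the 2 ratios 0.486). Il18 and Il18bp were nearly level per length of all exons, at ratios of 0.915, 0.975, 1.01 and 1.01 in the antagonist group and 1.06, 0.995, 1.09 and 1.11 in the dual group. Dual replicate 2 lay inside the antagonist range and the other 3 lay above it. The log2 difference of 0.12 did not pass (exact two-sided permutation test, p = 0.0857, adjusted 0.171). With 4 libraries against 4 the smallest possible p is 0.0286, and beside the other ratio's p the adjusted value could not go below 0.0571, so this ratio could not have passed. The ratios depend on the gene lengths used, whereas their differences between groups do not. Per length of the principal transcript, Il18 to Il18bp averaged 0.618 ± 0.0285 in the antagonist group and 0.672 ± 0.0317 in the dual group, and Il1b to Il1rn 15.8 ± 0.390 and 16.2 ± 0.889 (SD, n = 4 each).

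**Figure D4:**
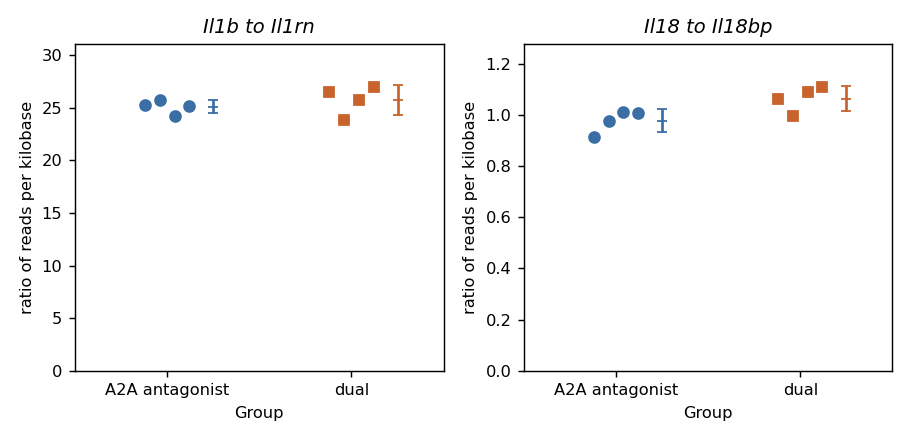
Ratio of Il1b to Il1rn (left) and of Il18 to Il18bp (right) in reads per kilobase, for each antagonist (circles) and dual (squares) library, with the mean and SD (n = 4) beside the points and axes that start at 0. Il1b exceeds Il1rn by about the same factor in both groups, and 3 of the 4 dual libraries of the Il18 to Il18bp ratio lie above the antagonist libraries.

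The wider pathway was read through 71 further genes, of which 67 were found by name and 61 passed the filter on low counts. Trim31, Il1f5, Il1f8 and Il1f10 were not matched. None was called by edgeR (0.208% of all genes were), while DESeq2 called 5, each lower in the dual group (Gbp5, Zbp1, Nfkbia, Tnfaip3 and Irf1; 1.39% of all genes, and 2.69% of those with a DESeq2 adjusted p, were called lower). Of the 61 genes, 42 had a DESeq2 adjusted p. At an unadjusted p under 0.05, 10 of the 61 genes were lower (16.4%, against 6.81% of all genes) and 2 higher (3.28%, against 5.98%). Fold changes were below 0 for 33 genes and above 0 for 28, with a median of -0.0041. The groups did not overlap for 6 genes that were lower and 1 that was higher, 11.5% of the 61 against 7.42% of all genes.

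**Figure D5:**
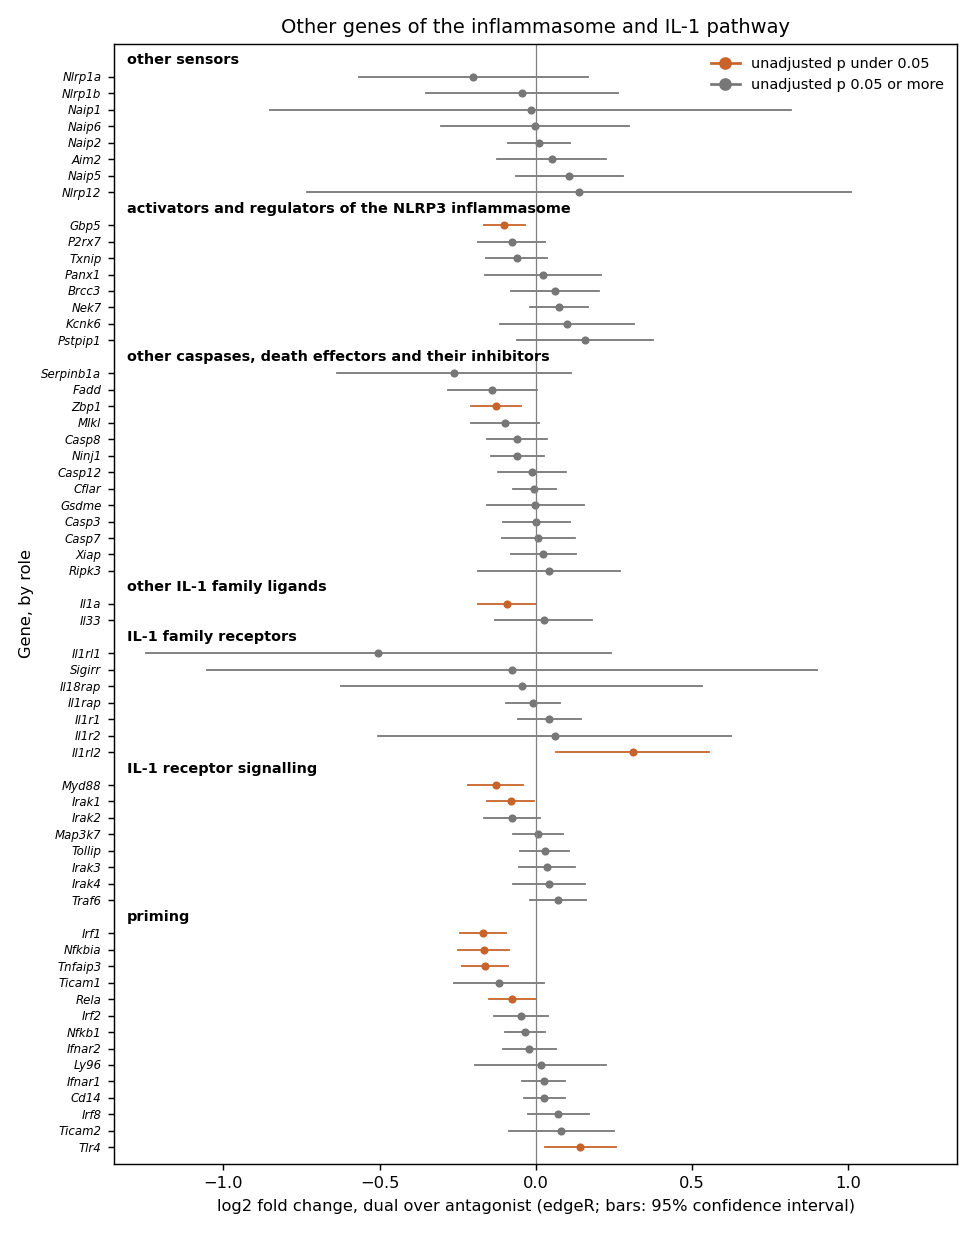
log2 fold change, dual over antagonist, with its 95% confidence interval (edgeR, n = 4 libraries a group) for 60 of the 61 other genes of the pathway, ordered within each role. Of the genes drawn, those with an unadjusted p under 0.05 (orange) are 9 on the left and 2 on the right of 0, and none passed adjustment.

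The 8 other sensors tested were split evenly around 0, and none had an unadjusted p under 0.05. Naip2 (0.01 ± 0.05) and Naip5 (0.11 ± 0.08), receptors upstream of NLRC4, belong to a family whose members share 32.8% to 53.1% of their 31-base stretches with other genes, so the division of reads among them is uncertain. Nlrp6, Nlrp10 and Mefv had at most 19 counts in a library and were not tested.

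Of the 8 activators and regulators of NLRP3, Gbp5, an interferon-induced GTPase that promotes NLRP3 assembly, had a log2 fold change of -0.10 ± 0.03 (edgeR adjusted p = 0.174) from a mean of 721 CPM in the antagonist group. The potassium channel, pannexin and P2X7 genes of this group stayed at unadjusted p values above 0.05. Of 13 other caspases and death genes, Zbp1, a nucleic acid sensor that starts necroptosis, was at -0.13 ± 0.04 (edgeR adjusted p = 0.154). Cflar, an inhibitor of caspase-8, was at -0.0041 ± 0.03.

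Il1a, the sister cytokine that signals without caspase-1, averaged 300.3 ± 20.9 CPM in the antagonist group and 282 ± 10.8 CPM in the dual group (log2 fold change -0.09 ± 0.04, edgeR adjusted p = 0.387). On the receiving side, Il1rap, the shared receptor chain, was at 94.6 and 94.0 CPM. Il1a and Il1rap share 222 and 552 exon bases with Gm14023 and Gm20319. Il1rl2, the IL-36 receptor, was at 2.59, 2.79, 2.68 and 2.66 CPM in the antagonist group and 3.22, 3.31, 3.16 and 3.61 CPM in the dual group. These ranges were separate, and the log2 fold change of 0.31 ± 0.12 did not pass adjustment (edgeR adjusted p = 0.264).

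The receptor chains of IL-18 were scarce in these cultures. Il18r1, the ligand-binding chain, had 0 to 2 counts in a library, where a count of 0 allows up to 0.0654 to 0.0919 CPM depending on the library. Il18rap, the accessory chain, had 15 to 28 counts. Il18r1 was not tested, nor were the ligand genes Il1f6 (0 to 8 counts) and Il1f9 (0 to 2 counts), and Il18rap was picked after its values were seen.

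Among 8 genes of IL-1 receptor signalling, Myd88, the adaptor shared by IL-1 and Toll-like receptors, was at -0.13 ± 0.04 (edgeR adjusted p = 0.186) and Irak1, the kinase it recruits, at -0.08 ± 0.04 (adjusted p = 0.342). For both, the 4 dual libraries lay below the 4 antagonist libraries. Myd88 shares 290 exon bases with Acaa1a. The remaining 6 genes had unadjusted p values above 0.05.

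The 15 priming genes held the lowest adjusted p of the list. Irf1, a transcription factor induced by IFN-γ, was at 127, 133, 138 and 137 CPM in the antagonist group and at 122, 119, 118 and 118 CPM in the dual group. No dual library reached an antagonist library, and the log2 fold change was -0.17 ± 0.04 (edgeR adjusted p = 0.0557). Irf1 shares 135 exon bases with Gm17334. Nfkbia and Tnfaip3, feedback inhibitors of NF-kappaB named here because DESeq2 called them, were at -0.17 ± 0.04 (adjusted p = 0.0686) and -0.16 ± 0.04 (adjusted p = 0.0606). Cd14, the LPS co-receptor, was at 643 and 656 CPM, a log2 fold change of 0.03 ± 0.03. Tlr4, named here for its direction, was the 1 priming gene higher at an unadjusted p under 0.05. It averaged 20.9 CPM in the antagonist group and 23.1 CPM in the dual group. Its log2 fold change was 0.14 ± 0.05 (edgeR unadjusted p = 0.0173, adjusted p = 0.268).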

How the data were processed

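RNA from 8 libraries, 4 a group, was selected for poly-A and sequenced. The authors aligned the reads with HISAT2 to the mouse genome (mm10, per the submitters' processing notes) and produced the deposited counts per gene with featureCounts 1.5.0-p3. They divided counts by gene length and library size to give the deposited FPKM values. The strand setting is not given in the sources used here. The deposited fold changes, p-values and normalised columns were not used, nor were 9 control columns that match no sample.

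Differences between groups were assessed on the counts by edgeR (version 4.0.16, R 4.3.3; quasi-likelihood F test, TMM scaling, filterByExpr with a minimum count of 10, groups as the only term), and p-values were adjusted by the Benjamini-Hochberg method over all 18756 genes tested. Levels are CPM on TMM-scaled library sizes, and FPKM was used only to compare genes. Intervals are at the 95% level and cover the spread between libraries. Nothing in the labels says that the 4 libraries of a group come from separate cultures or animals, so p-values measure the spread between these libraries, which may be technical. No pair of libraries within a group was a copy. DESeq2 1.42.0, other scalings, filters, a replicate block and leaving out each library were alternatives, and the principal-transcript length was chosen after seeing the data. The 10 genes, the pathway list and the marker lists were chosen with earlier results of these data known. Pathway genes named in the text are, for each role, the tested gene with the highest mean CPM and that with the smallest p, any called gene and those below the filter, and exceptions are marked. Values of 1 pathway gene are not reported here.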

Additional observations from a re-analysis of the deposited data

Results flagged for a closer look

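In 3 of 48 sets of 4 libraries examined, 1 library stood far from the other 3 by Dixon's criterion, which chance alone meets in about 5% of sets. Casp4 was at 75.1 CPM in dual replicate 4, above the 66.3 to 67.4 CPM of the other dual libraries. Gsdmd was at 37.9 CPM in dual replicate 1, against 34.0 to 34.6 CPM in the others. Irf1 was at 122 CPM in dual replicate 1, against 118 to 119 CPM in the others, and all 4 lay below the antagonist libraries.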

How the results depend on the processing

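Nlrc4, Pycard, Casp1, Casp4, Il1b, Il18, Il1rn and Il18bp kept the sign of their fold change under all 14 alternatives, and no member other than Il18bp was called under those that gave it an adjusted p (DESeq2 gave none to Nlrc4, Pycard and Il18). The number of genes called among all tested, 39 in the comparison as reported, was 374 with DESeq2, 366 with no filter on low counts, 63 among protein-coding genes, 17 with a replicate block and 0 to 172 when 1 library was left out (0 without antagonist replicate 4 or dual replicate 3, where 1802 and 2092 genes had an unadjusted p under 0.05). Members called by edgeR numbered 0 with the replicate block (2 at an unadjusted p under 0.05) and 0 to 1 when 1 library was left out. Pathway genes called numbered 5 with DESeq2, 3 with no filter, 2 among protein-coding genes and 0 to 4 when 1 library was left out. The median log2 fold change of the members ranged from -0.082 to -0.031 over the libraries left out. Nlrp3, at about 0, turned to 0.0098 with library totals and 0.0023 among protein-coding genes, and lay between -0.018 and 0.024 with 1 library left out. Gsdmd lay between -0.023 and 0.028. Both ratios kept their direction under 10 alternatives, but the deposited FPKM and the replicate block could not alter these differences. The rest left out 1 library each. For the replicate block, Il18bp kept its log2 fold change of -0.23 with an adjusted p of 0.0929. The shared replicate numbers did not pair the libraries, since deviations of same-numbered libraries correlated at -0.05 to 0.04, and not every library correlated best with its own number. Paired by number, the 2 ratios allow no exact sign-flip p below 0.125. The cause of these shifts was not tested. Nlrc4 and Pycard rest on 157 to 419 counts a library, which limits what differences could be seen.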
